A study of Danio rerio with 8 samples.

Results

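The zebrafish genome carries 8 cone opsin genes, and all of them were measured in retinas of *bbs2* mutants and wild-type siblings. They are the red opsins *opn1lw1* and *opn1lw2*, the green opsins *opn1mw1*, *opn1mw2*, *opn1mw3* and *opn1mw4*, the UV opsin *opn1sw1* and the blue opsin *opn1sw2*. The members were taken by gene symbol from the deposited count table, in which they are 8 of 32520 genes, and all 8 passed the filter on low counts. The retinas came from adult zebrafish of 6 months and both sexes, which were dark-adapted overnight. The mutants were homozygous *bbs2* -/- fish and the controls were their *bbs2* +/+ siblings, both from crosses of heterozygous parents, with 4 independent samples per genotype. Each sample pooled a pair of retinas dissected so as to carry little retinal pigment epithelium (RPE), so a value is an average over all cell types of whole retinas. The mutation is present in every cell of the fish, not in cones alone.

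A cone opsin is the light-absorbing protein of a cone photoreceptor, a receptor that binds a vitamin A-derived chromophore in the outer segment and activates the cone transducin. As a rule each zebrafish cone uses an opsin of a single colour. Red and green opsins lie in the members of the double cone, blue opsin in the long single cone and UV opsin in the short single cone. The red and the green opsins are tandem copies that arose by gene duplication, and within each array the copies differ in the wavelength they absorb best and in where they are used. In the zebrafish retina *opn1lw2*, *opn1mw1* and *opn1mw2* are known mainly from the central and dorsal retina, and *opn1lw1*, *opn1mw3* and *opn1mw4* mainly from its periphery and ventral part. *bbs2* encodes a subunit of the BBSome, a complex that sorts membrane proteins in cilia, and the outer segment is a modified cilium.

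In the annotation of a later zebrafish assembly, used here for gene order only, *opn1mw1*, *opn1mw2*, *opn1mw3* and *opn1mw4* follow each other with no other protein-coding gene between them. The blue opsin *opn1sw2* lies directly before *opn1lw1*, which is followed by *opn1lw2*, while *opn1sw1* stands alone between *calua* and *tnpo3*. Reads shared between tandem copies may be counted for either of them or for neither, and their treatment by the counting step was not given in the sources used here. Any division of counts between copies of a colour is therefore uncertain. The sum over the copies is not changed by reads counted for the wrong copy, but it would be lowered by reads counted for neither.

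The 4 wild-type libraries held 6279179 to 8442827 counts each and the 4 mutant libraries 7289910 to 11496801. The targeted gene *bbs2* had 39.8 to 45.5 CPM (counts scaled by library total and TMM factor) in wild-type siblings and 27.3 to 28.8 CPM in mutants, a log2 fold change of -0.59 ± 0.09 (SE, adjusted p = 8.82e-05, edgeR), and its groups did not overlap. Markers of other cells were summed as well. All 12 RPE and pigment cell markers were higher in mutants, with a summed TPM (a level per gene length, on a common total) of 53.2 to 140.2 against 866.8 to 1540.6 in the mutant libraries. Of the microglia and macrophage markers 13 of 14 tested were higher, with a summed TPM of 304.3 to 369.6 against 541.6 to 733.0. Summed rod phototransduction genes had 26546.6 to 32884.1 TPM in wild-type siblings and 34286.2 to 41420.8 TPM in mutants, but of 24 tested rod genes only 5 rose and 2 fell, beside 28.1% of all tested genes called in either direction, and their median log2 fold change was 0.13. Its most abundant member by mean CPM was *rho*, which went from 12959 to 19577 CPM with groups that overlapped in CPM. The TPM of *rho*, the unit of the rod sum, is not given here. No RPE, microglia or rod marker was at 0 in all libraries, and the part of these shifts in the opsin values was not tested. Müller glia, horizontal, bipolar, amacrine and ganglion cell markers overlapped in summed TPM between genotypes, although 4 of 11 tested Müller glia markers rose and 2 fell, and 4 of 11 tested amacrine cell markers fell. Of 10 tested bipolar cell markers 1 rose and 2 fell, as did 1 and 2 of 10 tested ganglion cell markers. None of 6 tested horizontal cell markers was called. Among all tested genes 15.2% rose and 13.0% fell.

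Between genotypes 7 of the 8 cone opsins differed (edgeR, FDR 0.05), 2 upward and 5 downward. Among all 17144 tested genes 28.1% were called, 15.2% upward and 13.0% downward. The red opsin *opn1lw1* rose 1.99-fold in mean CPM and the green opsin *opn1mw3* rose 3.06-fold. Of the other copies of these colours, *opn1lw2* fell 8.44-fold and *opn1mw1* 41.0-fold, the UV opsin *opn1sw1* fell 3.40-fold, the blue opsin *opn1sw2* fell 2.25-fold and the green opsin *opn1mw2* fell 1.83-fold. Only *opn1mw4* did not pass the test. The wild-type and mutant libraries did not overlap for 7 of the 8 opsins, 2 higher and 5 lower in mutants, against 29.3% of all tested genes (15.4% higher and 13.9% lower). In TPM, a level per gene length, *opn1mw2* overlapped as well, with 1021.5 in mutant 4 and 979.8 in the lowest wild-type sibling. In bulk retina, fewer cones of a type and less opsin RNA per cone cannot be told apart.

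**Figure D1:**
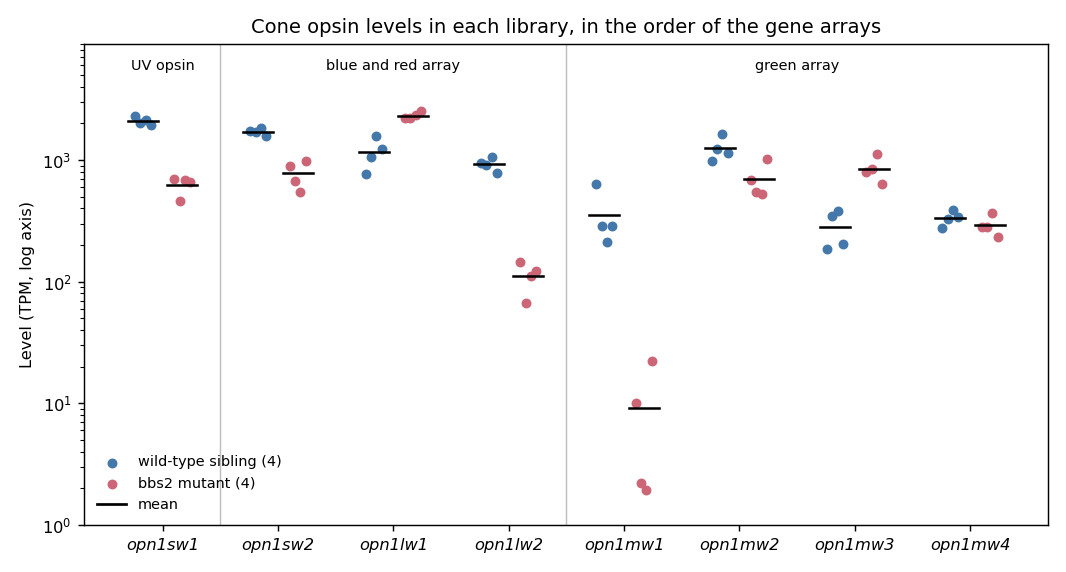
Level of each cone opsin in TPM on a log axis, with 1 point per library (4 wild-type siblings in blue, 4 mutants in red) and a line at each group's mean, the opsins being in the order of their arrays. The genotypes overlap for *opn1mw4* and, through mutant 4, for *opn1mw2*, and *opn1mw1* lies at 212.5 to 630.3 TPM in wild-type siblings and at 1.95 to 22.1 TPM in mutants.

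The red opsin *opn1lw1* (ENSDARG00000044862) absorbs the longest wavelengths of the zebrafish cone opsins. It had 722.7, 964.7, 1397.6 and 1171.5 CPM in wild-type siblings 1 to 4 and 1803.9, 2053.7, 2351.3 and 2249.6 CPM in mutants 1 to 4. Every mutant lay above every wild-type sibling, and wild-type 1, the library with the fewest counts, was the lowest of all. Mean CPM was 1064 ± 288 (SD, n = 4) and 2115 ± 241, and the fitted log2 fold change was 0.99 ± 0.20 (SE, adjusted p = 0.00682, edgeR). The other red opsin, *opn1lw2* (ENSDARG00000044861), had 944.3, 872.9, 1001.4 and 804.7 CPM in wild-type siblings and 125.8, 66.2, 120.0 and 117.1 CPM in mutants. All mutants lay far below all wild-type siblings, with mutant 2 apart from the other mutants. Mean CPM of *opn1lw2* went from 906 ± 85.5 to 107 ± 27.6, a log2 fold change of -3.08 ± 0.21 (adjusted p = 1.67e-05, edgeR).

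Among the green opsins, *opn1mw1* (ENSDARG00000097008), the copy at the start of the array, fell furthest. It had 548.4, 239.8, 175.0 and 252.9 CPM in wild-type siblings and 7.6, 1.9, 1.8 and 18.3 CPM in mutants, the latter from 74, 20, 21 and 137 counts. No mutant came within reach of the wild-type range, yet the mutants differed among themselves by up to 10.0-fold and wild-type 1 was high. The log2 fold change was -5.47 ± 0.80 (adjusted p = 0.00309, edgeR), and -6.36 without mutant 4. The next copy, *opn1mw2* (ENSDARG00000044280), had 899.6, 1098.8, 1412.6 and 1069.2 CPM in wild-type siblings and 538.3, 502.5, 516.5 and 893.0 CPM in mutants. Mutant 4 lay just under the lowest wild-type sibling and the other 3 mutants well below it. The log2 fold change of *opn1mw2* was -0.87 ± 0.23 (adjusted p = 0.0276, edgeR). This call depended on single libraries and settings. Its adjusted p was 0.0588 without wild-type 2, 0.0531 without wild-type 4, 0.0831 without mutant 1, 0.0713 without mutant 2, 0.0785 without mutant 3 and 0.000132 without mutant 4, and it was 0.0503 with library totals in place of TMM and 0.0564 with no filter on low counts.

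The third copy, *opn1mw3* (ENSDARG00000044279), moved the other way. It had 142.2, 256.1, 275.9 and 159.3 CPM in wild-type siblings and 529.4, 639.6, 920.4 and 459.8 CPM in mutants, with all mutants above all wild-type siblings. Mean CPM was 208 ± 67.3 (SD, n = 4) and 637 ± 203, and the log2 fold change was 1.61 ± 0.32 (adjusted p = 0.0104, edgeR). The last copy, *opn1mw4* (ENSDARG00000000638), had 209.9, 242.4, 282.3 and 265.7 CPM in wild-type siblings and 186.3, 212.1, 301.1 and 168.4 CPM in mutants. Mutant 3 was the highest of all 8 libraries, mutants 1 and 4 lay below the wild-type range, and mutant 2 lay near its lower end. The log2 fold change of *opn1mw4* was -0.20 (95% confidence interval -0.63 to 0.22, adjusted p = 0.475, edgeR), so a moderate fall or a slight rise both lie within the interval. Without mutant 3 it was -0.39 (adjusted p = 0.0134, edgeR).

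The UV opsin *opn1sw1* (ENSDARG00000045677) had 2272.5, 1909.9, 1966.3 and 1956.5 CPM in wild-type siblings and 588.1, 452.2, 730.5 and 615.8 CPM in mutants. Its groups were far apart, and wild-type 1 stood above the other wild-type siblings. The log2 fold change was -1.76 ± 0.13 (adjusted p = 1.25e-06, edgeR). The blue opsin *opn1sw2* (ENSDARG00000017274) had 1469.7, 1391.0, 1463.3 and 1348.3 CPM in wild-type siblings and 657.4, 565.1, 499.9 and 797.3 CPM in mutants. The wild-type values of *opn1sw2* were the least spread of the 8 opsins, with a coefficient of variation of 4.13%, and all mutants lay below them. Its log2 fold change was -1.17 ± 0.12 (adjusted p = 2.06e-05, edgeR).

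**Figure D2:**
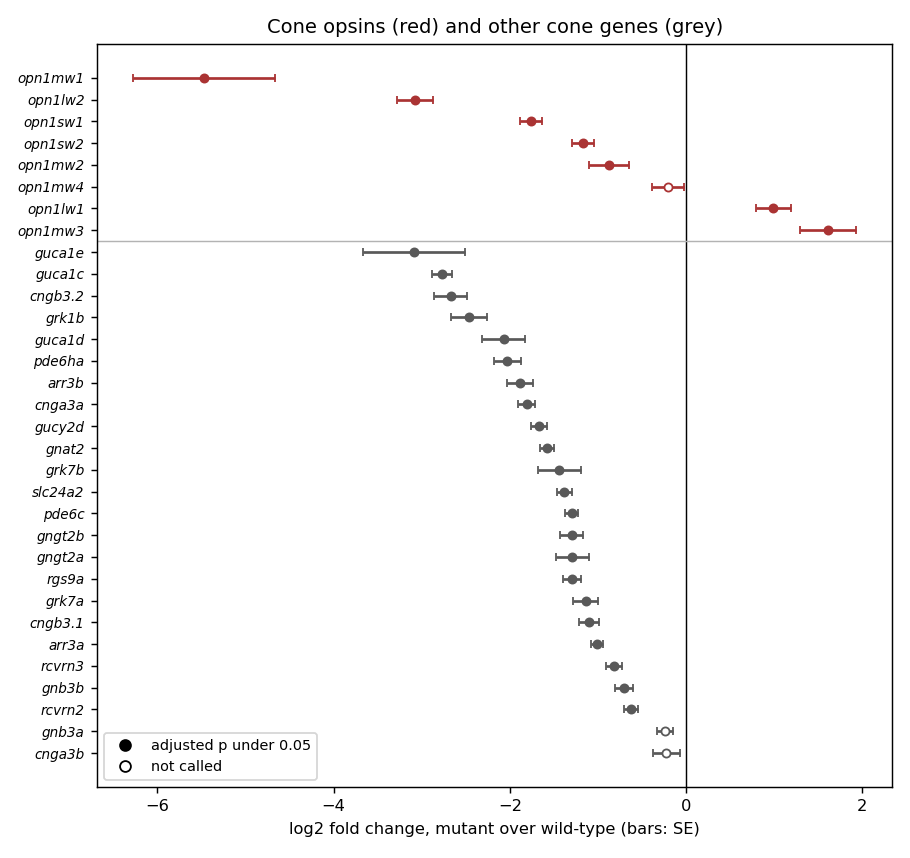
Log2 fold change, mutant over wild-type siblings, from the edgeR fit for the 8 cone opsins (red, upper rows) and 24 other cone genes (grey), each with its standard error as a bar, filled where the adjusted p was under 0.05. Opsins run from -5.47 for *opn1mw1* to 0.99 for *opn1lw1* and 1.61 for *opn1mw3*, while all 24 other cone genes lie below 0.

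Some neighbouring genes of an array moved in opposite directions. In the blue and red array *opn1sw2* fell, *opn1lw1* rose and *opn1lw2* fell. In the green array *opn1mw1* and *opn1mw2* fell and *opn1mw3* rose, with *opn1mw4* not called. The protein-coding genes that flank the blue and red array and *opn1sw1*, chosen by position, did not pass the test. The log2 fold change was 0.00 for *hcfc1a* (adjusted p = 0.999), -0.10 for *gnl3l* (0.601), -0.15 for *calua* (0.492) and -0.01 for *tnpo3* (0.958, edgeR), each a difference in level between genotypes. No result is given for a flanking gene of the green array, where *slc6a22.2* did not pass the filter on low counts and *synprb* was not looked up.

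Levels of different opsins can be compared only per length, in TPM. In wild-type siblings the order of mean TPM was *opn1sw1* at 2099 ± 158 (SD, n = 4), *opn1sw2* at 1707 ± 110, *opn1mw2* at 1247 ± 274, *opn1lw1* at 1157 ± 334, *opn1lw2* at 924 ± 111, *opn1mw1* at 353 ± 188, *opn1mw4* at 335 ± 47.6 and *opn1mw3* at 281 ± 99.1. The libraries of *opn1sw1* and *opn1sw2* did not overlap, nor did those of *opn1lw2* and *opn1mw1*, so the order has a top, a middle and a bottom group whose inner neighbours overlapped. In mutants the order became *opn1lw1* at 2316 ± 144 TPM, *opn1mw3* at 851 ± 202, *opn1sw2* at 777 ± 203, *opn1mw2* at 693 ± 229, *opn1sw1* at 626 ± 110, *opn1mw4* at 290 ± 56.1, *opn1lw2* at 112 ± 33.3 and *opn1mw1* at 9.11 ± 9.47. Here *opn1lw1* stood apart at the top, the next 4 opsins overlapped with their neighbours, and *opn1mw4*, *opn1lw2* and *opn1mw1* were each apart from the opsin ranked before them.

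Among all genes ranked by mean TPM, *opn1lw1* went from rank 47 to rank 19 and *opn1mw3* from 208 to 51. *opn1sw1* went from 24 to 69, *opn1sw2* from 29 to 57, *opn1mw2* from 42 to 63, *opn1lw2* from 55 to 667 and *opn1mw1* from 159 to 10731, while *opn1mw4* was at 166 and 178. *opn1lw1* held 14.2% ± 3.30 (SD, n = 4) of the TPM of the 8 opsins in wild-type siblings and 40.9% ± 1.87 in mutants. The share of *opn1mw3* was 3.42% ± 1.01 and 15.1% ± 4.02, that of *opn1sw1* 26.0% ± 2.67 and 11.0% ± 1.43, and that of *opn1lw2* 11.4% ± 0.637 and 1.95% ± 0.501. The libraries overlapped for the shares of *opn1mw2* (15.3% and 12.1%) and *opn1mw4* (4.13% and 5.16%).

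The second question for tandem copies is how the counts of a colour divide between them. In all, 6 shares were tested by a two-sided exact permutation test over the 70 arrangements of 4 against 4 libraries, in which p cannot fall below 0.0286. Adjusted over the 6 shares, no p could then pass 0.05 unless at least 4 of the 6 reached that limit. The counting error of a single library's share, by exact Clopper-Pearson 95% intervals, spanned at most 1.95 percentage points and covers counting error only.

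*opn1lw1* made up 43.4%, 52.5%, 58.3% and 59.3% of the red counts in wild-type siblings and 93.5%, 96.9%, 95.1% and 95.1% in mutants. Wild-type retinas thus carried both red copies at like counts, and in mutant retinas nearly all red counts were of *opn1lw1*. The mean share was 53.3% ± 7.30 (SD, n = 4) and 95.1% ± 1.39, a difference of 41.8 points (exact permutation p = 0.0286, adjusted p = 0.0571). The shifts that the same test did not reject at 0.05 ran from 34.2 to 53.6 points. Per length, the ratio of *opn1lw1* to *opn1lw2* was 0.815, 1.18, 1.49 and 1.55 in wild-type siblings against 15.3, 33.0, 20.9 and 20.5 in mutants.

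In the green group *opn1mw1* made up 30.5%, 13.1%, 8.16% and 14.5% of counts in wild-type siblings and 0.603%, 0.142%, 0.105% and 1.19% in mutants. The fall was 16.0 points (exact permutation p = 0.0286, adjusted p = 0.0571), and p was 0.0571 when any 1 mutant was left out although the groups still did not overlap. *opn1mw3* made up 7.90%, 13.9%, 12.9% and 9.12% in wild-type siblings and 42.0%, 47.2%, 52.9% and 29.9% in mutants, a difference of 32.0 points (exact permutation p = 0.0286, adjusted p = 0.0571). By counts, this copy had the smallest green share in wild-type 1 and wild-type 4 and the largest in mutants 2 and 3. Per length it had the largest share in mutant 1 as well, at 45.3% against 38.2% for *opn1mw2*.

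*opn1mw2* held 50.0%, 59.8%, 65.8% and 61.2% of the green counts in wild-type siblings and 42.7%, 37.1%, 29.7% and 58.0% in mutants. Mutant 4 lay within the wild-type range and the other mutants below it. The difference was -17.3 points (exact permutation p = 0.0571, adjusted p = 0.0857), with shifts from -36.2 to 8.04 points not rejected, and p was 0.0286 without mutant 4. The share of *opn1mw4* was 11.7%, 13.2%, 13.2% and 15.2% in wild-type siblings against 14.8%, 15.6%, 17.3% and 10.9% in mutants, so mutant 4 was the lowest of all libraries and the groups overlapped. The difference was 1.36 points (exact permutation p = 0.457), with shifts from -4.28 to 5.65 points not rejected.

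The 4 mutants differed from each other in the make-up of the green group. The shares of *opn1mw1* and of *opn1mw2* were both highest in mutant 4, then in mutants 1, 2 and 3 in that order. The shares of *opn1mw3* and *opn1mw4* followed the reverse order, from mutant 3 down to mutant 4. Since the 4 shares sum to 100%, these orders are not independent of each other. Per length the ratio of *opn1mw3* to *opn1mw4* was nevertheless narrow among mutants, at 2.84, 3.02, 3.06 and 2.73, against 0.678, 1.06, 0.977 and 0.600 in wild-type siblings. The ratio of *opn1mw2* to *opn1mw3* per length was 5.25, 3.56, 4.25 and 5.57 in wild-type siblings against 0.844, 0.652, 0.466 and 1.61 in mutants. Per length, only mutant 4 thus kept more *opn1mw2* than *opn1mw3*. By counts mutant 1 did so as well, narrowly, with green shares of 42.7% and 42.0%.

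The UV and blue opsins are single genes of different cone types. *opn1sw1* made up 60.7%, 57.9%, 57.3% and 59.2% of their joint counts in wild-type siblings and 47.2%, 44.4%, 59.4% and 43.6% in mutants. Mutant 3 lay within the wild-type range while the other mutants lay below it. The difference was -10.1 points (exact permutation p = 0.114, adjusted p = 0.137), with shifts from -17.2 to 2.05 points not rejected, and p was 0.0286 without mutant 3.

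**Figure D3:**
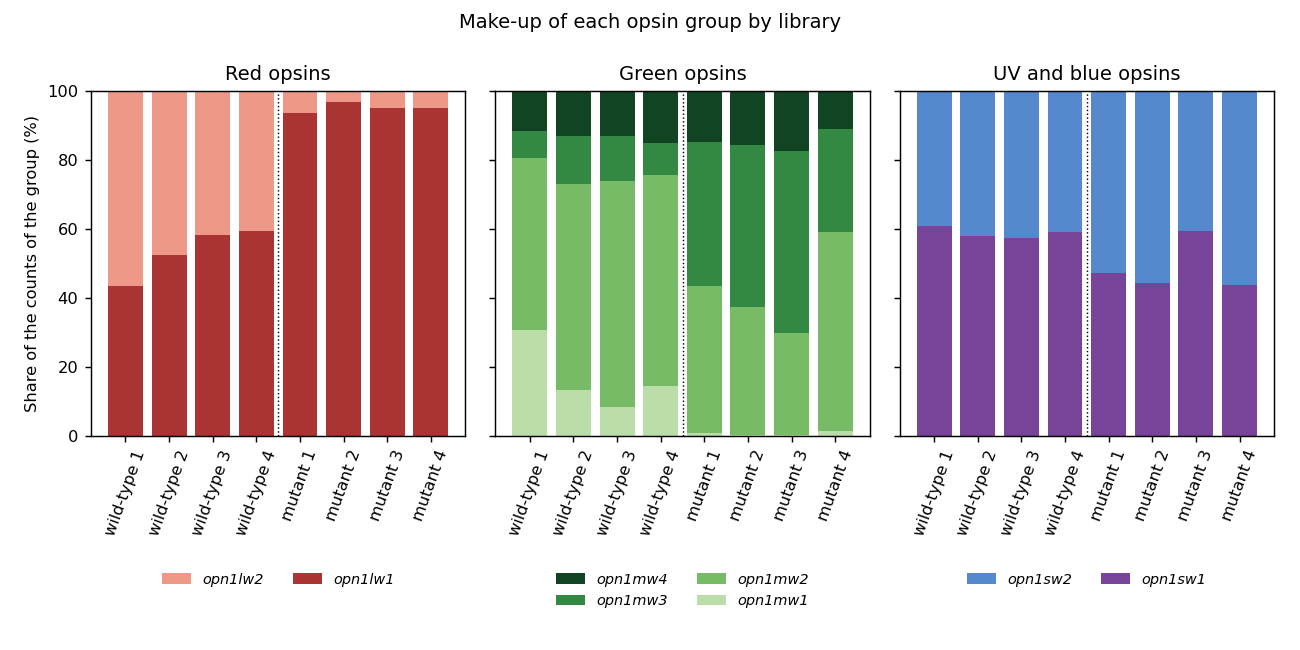
Share of each opsin in the counts of its group (%), as stacked bars, 1 bar per library, for the red, the green and the UV and blue opsins. *opn1lw1* fills 93.5% to 96.9% of the red bars in mutants, *opn1mw1* nearly vanishes from the green bars, and *opn1mw3* widens to between 29.9% and 52.9%.

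Summed over the copies, the colours moved by different amounts. The red opsins together had 1970 ± 313 CPM in wild-type siblings and 2222 ± 244 CPM in mutants (SD, n = 4). Their ranges, 1667 to 2399 and 1930 to 2471 CPM, overlapped, and the log2 difference of 0.18 had an exact permutation p = 0.229, with shifts from -0.314 to 0.569 not rejected. A fall of the red sum below 0.804-fold or a rise above 1.48-fold thus lay outside these limits. The green opsins together had 1883 ± 179 and 1474 ± 211 CPM, and their ranges of 1747 to 2146 and 1262 to 1740 CPM lay next to each other without overlap. The green sum was 1.28-fold lower (log2 difference -0.36, exact permutation p = 0.0286, adjusted over 5 sums p = 0.0357). That call was lost with library totals in place of TMM (-0.26, exact permutation p = 0.0857) and with TPM (-0.26, exact permutation p = 0.0571). Per length the green sums overlapped, with mutant 3 at 2014 TPM and wild-type 4 at 1973 TPM. The call was also lost when any 1 wild-type library was left out (exact permutation p = 0.0571 each). The CPM difference was then still -0.39 to -0.29 and the groups did not overlap in CPM.

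The UV sum, of *opn1sw1* alone, was 3.44-fold lower by geometric means, and the blue sum, of *opn1sw2* alone, was 2.28-fold lower in the same way (exact permutation p = 0.0286 each, adjusted p = 0.0357). All 8 opsins together had 7297 ± 463 CPM in wild-type siblings and 4923 ± 531 CPM in mutants, 1.49-fold lower, with no overlap between libraries. Per length, the red opsins held 25.6% of opsin TPM in wild-type siblings and 42.8% in mutants, the green opsins 27.3% and 32.5%, the UV opsin 26.0% and 11.0%, and the blue opsin 21.1% and 13.6%. None of these 4 shares overlapped between genotypes.

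**Figure D4:**
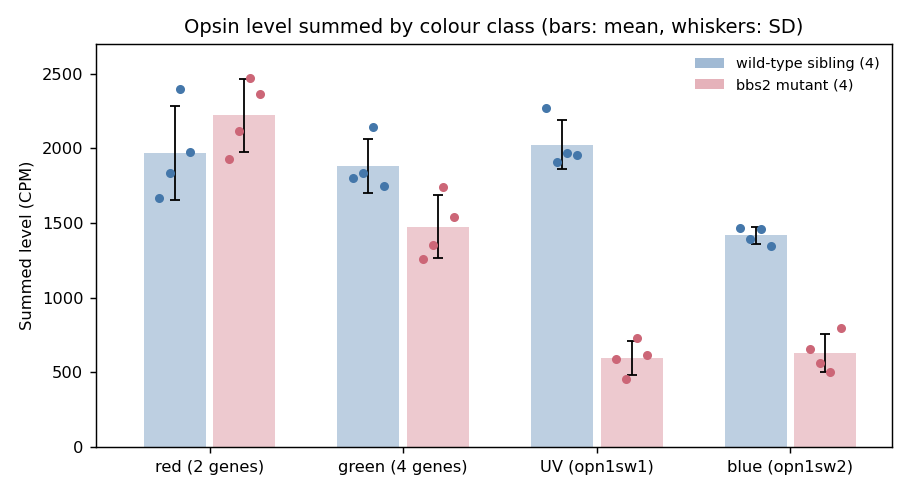
Summed CPM of the red, green, UV and blue opsins, with 1 point per library, bars from 0 to the mean of the 4 libraries of a genotype and whiskers for the SD. The red sums overlap between genotypes, the green sums are adjacent, and the UV and blue sums of mutants lie well below those of wild-type siblings.

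The other genes of the cone phototransduction cascade give a scale, pooled over cone types, against which an opsin can be set. Of 24 tested cone genes other than opsins 22 fell and 0 rose, with a median log2 fold change of -1.34. Over all tested genes 13.0% fell and the median was -0.01. The steepest of those named by the smallest p was *guca1c*, an activator of guanylate cyclase, at -2.77. The log2 fold change was -1.67 for *gucy2d*, a photoreceptor guanylate cyclase, -1.58 for *gnat2*, the cone transducin alpha subunit, -1.81 for *cnga3a*, a subunit of the cone cyclic nucleotide-gated channel, and -1.38 for *slc24a2*, the cone sodium, calcium and potassium exchanger. *pde6c*, the cone phosphodiesterase, fell from a mean of 3094 to 1256 CPM. The 2 that did not pass were *gnb3a*, a transducin beta subunit, at -0.24 (adjusted p = 0.070), and *cnga3b* at -0.23 (adjusted p = 0.307, edgeR), both named because they were the exceptions.

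The cone arrestins divide by cone type in zebrafish, with *arr3a* in red and green cones and *arr3b* in UV and blue cones. *arr3a* had 2378, 2577, 2463 and 2460 CPM in wild-type siblings and 1208, 1152, 1228 and 1315 CPM in mutants, a log2 fold change of -1.01 ± 0.07 (SE, adjusted p = 3.54e-08, edgeR). *arr3b* had 625.7, 690.0, 506.5 and 477.8 CPM in wild-type siblings and 183.0, 124.6, 150.5 and 168.7 CPM in mutants, a log2 fold change of -1.88 ± 0.15 (adjusted p = 8.84e-06, edgeR). Both arrestins fell. *arr3a* did so while the red opsin sum overlapped between genotypes and the green opsin sum had a log2 difference of -0.36 in CPM. The log2 fold change of *arr3b* stands beside those of *opn1sw1* (-1.76) and *opn1sw2* (-1.17). The rod opsin *rho* had a log2 fold change of 0.60 (adjusted p = 0.00305, edgeR). Its CPM was 16198, 11096, 11868 and 12675 in wild-type siblings against 15939, 21322, 21390 and 19657 in mutants, so mutant 1 lay within the wild-type range.

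The mean log2 CPM of the 24 cone genes was 8.66 to 8.79 in wild-type siblings against 7.11 to 7.37 in mutants, a difference of -1.50 or 2.83-fold. Each opsin was then expressed as its log2 CPM minus this mean in the same library, and the 8 differences between genotypes were tested by exact permutation. The mean pools genes of different cone types, of which *arr3a* (log2 fold change -1.01) and *arr3b* (-1.88) fell by different amounts. It is therefore not the scale of any single cone type. *opn1mw3* gained 3.12, *opn1lw1* gained 2.53 and *opn1mw4* gained 1.27 log2 units relative to the cone genes (exact permutation p = 0.0286 each, adjusted p = 0.0457). For *opn1mw4* the relative level was -1.03, -0.87, -0.52 and -0.61 in wild-type siblings and 0.42, 0.62, 0.87 and 0.15 in mutants, so its groups separated on this scale, in contrast to its CPM. Because the mean of the cone genes fell, a gene with unchanged CPM would gain on this scale as well. The gain of *opn1mw4*, whose own log2 fold change was -0.20 (adjusted p = 0.475, edgeR), is therefore not a rise in its level. It shows only that *opn1mw4* did not fall as the cone genes did on average. *opn1lw2* and *opn1mw1* fell beyond the cone genes, with differences of -1.61 and -4.28 (exact permutation p = 0.0286 each, adjusted p = 0.0457). Without wild-type 1 the p of *opn1mw1* was 0.0571.

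The remaining opsins did not separate from the cone genes by this test. The relative difference was 0.61 for *opn1mw2* (exact permutation p = 0.0571, shifts from -0.15 to 1.48 not rejected). For *opn1sw1* it was -0.28 (exact permutation p = 0.0571, shifts from -0.70 to 0.04 not rejected). For *opn1sw2* it was 0.31 (exact permutation p = 0.143, shifts from -0.25 to 0.74 not rejected), and p was 0.0286 without mutant 3. With the median of the cone genes in place of their mean, *opn1sw1* changed sign to 0.051 (exact permutation p = 0.714), while *opn1mw2* was at 0.94 and *opn1sw2* at 0.64 (exact permutation p = 0.0286 each). The position of *opn1sw1*, *opn1sw2* and *opn1mw2* relative to the cone cascade thus depended on how the cascade was averaged, while *opn1lw1*, *opn1lw2*, *opn1mw1*, *opn1mw3* and *opn1mw4* kept their direction and their p under the median.

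**Figure D5:**
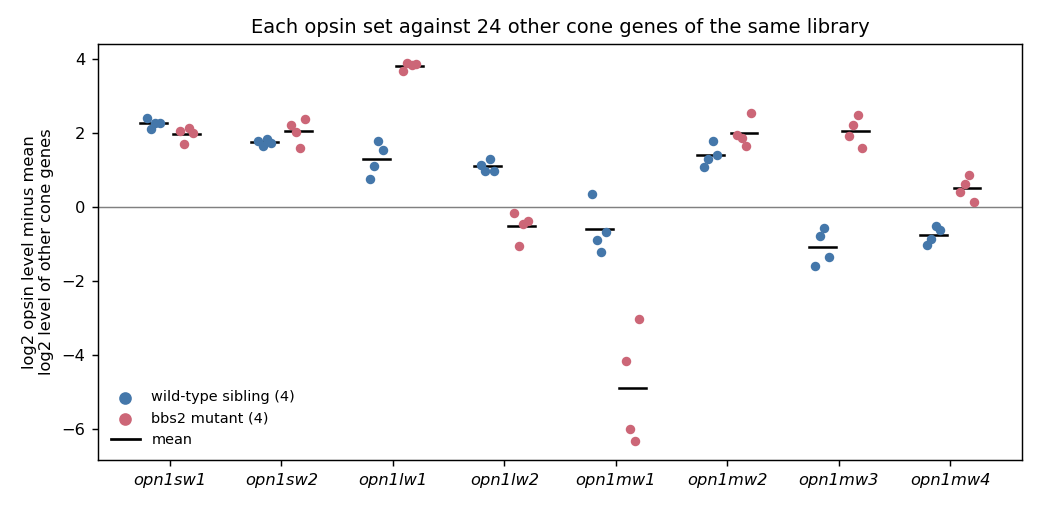
Log2 CPM of each opsin minus the mean log2 CPM of 24 other cone genes in the same library, with 1 point per library and a line at each group's mean (wild-type siblings blue, mutants red). The mutants lie above the wild-type siblings for *opn1lw1*, *opn1mw3* and *opn1mw4* and below them for *opn1lw2* and *opn1mw1*, while the means of *opn1mw2*, *opn1sw1* and *opn1sw2* differ by 0.61 log2 units or less.

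Opsin choice in zebrafish cones is under the control of transcription factors, thyroid hormone and retinoids, and a list of such regulators was counted. Of 36 tested regulators 7 rose and 11 fell, with a median log2 fold change of -0.06. That is 18 called of 36, beside 28.1% of all tested genes. *thrb*, the thyroid hormone receptor that red cones need in zebrafish, went from a mean of 534.5 to 407.5 CPM, a log2 fold change of -0.39 (adjusted p = 0.00121). *tbx2b*, a T-box factor needed for UV cones in zebrafish, had -0.44 (adjusted p = 0.000663), and the retinal homeobox genes *rx1* and *rx2* had -1.31 and -0.64 (adjusted p = 4.29e-06 and 7.07e-05, edgeR). *sox6*, an SRY-box transcription factor, and *nr2f2*, an orphan nuclear receptor, had log2 fold changes of -1.36 and -0.72.

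Of the regulators that rose, *prdm1a*, a zinc finger repressor, went from 3.25 to 88.0 mean CPM, *nr2f1b*, an orphan nuclear receptor, from 4.63 to 59.3, and *rxrgb*, a retinoid X receptor, from 2.29 to 17.7. The related *prdm1b*, named after the values were seen, went the other way. Its mean CPM went from 106.2 to 41.7 (log2 fold change -1.35, adjusted p = 0.00494, edgeR). *nr2e3*, a photoreceptor nuclear receptor known for its role in rods, went from 18.6 to 62.9 mean CPM and *nr2f6b* from 108.6 to 152.1. *dio1*, a deiodinase that acts on thyroid hormone, went from 2.81 to 5.31 (adjusted p = 0.0165, and 0.0544 without mutant 4, edgeR). These rises stand beside the higher RPE, pigment cell and microglia markers given above, whose part in them was not tested.

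Further genes of this list were picked after the values were seen. *foxq2*, which blue opsin needs in zebrafish, went from 7.38 to 2.94 mean CPM (log2 fold change -1.34, adjusted p = 0.00218). *six7* and *six6b*, which green and blue opsins need in zebrafish, had -0.10 (adjusted p = 0.768) and -0.03 (adjusted p = 0.868). The related *six6a* was not called at 0.46 (adjusted p = 0.12, edgeR). *thrab*, a thyroid hormone receptor gene, had -0.39 (adjusted p = 0.00203), while the related *thraa* was not called at 0.36 (adjusted p = 0.128, edgeR). *cyp27c1*, which makes the long-wave chromophore from vitamin A, had 2.45 ± 0.685 (SE, adjusted p = 0.039, edgeR) with a mean of 4.25 and 22.8 CPM. The part of the higher RPE markers in the rise of *cyp27c1* was not tested, and its call under the other settings is not given here.

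The profile of each opsin over the 8 libraries, as log2 CPM relative to the wild-type mean, was compared with 16096 tested genes by the mean absolute difference. This is a description, since a gene with a like change between genotypes lies near by construction. Nearest to *opn1lw1* were *faah2a* (0.104 log2 units) and *inhbb* (0.123), and nearest to *opn1lw2* were *si:dkey-97a13.12* (0.247) and the cyclase activator *guca1c* (0.327). *opn1mw1* had no near neighbour, the closest being *bglapl* and *si:dkey-23o4.6* at 1.41 each. *opn1mw2* lay nearest to *mlf1* (0.171) and *CR848833.1* (0.172), *opn1mw3* to *pappaa* (0.223) and *BX664622.1* (0.260), and *opn1mw4* to *EPHB3* (0.0734) and *BX530097.1* (0.0845). *opn1sw1* lay nearest to *wnk4b* (0.123) and *gabra6a* (0.125), and *opn1sw2* to *zgc:174680* (0.0974) and *dgkg* (0.105).

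Among the opsins themselves the same measure was used, which again mainly reflects the change between genotypes. *opn1sw1* and *opn1sw2* have no other copy of their own colour. *opn1lw1* and *opn1mw3*, the 2 that rose, were nearest to each other at 0.424 log2 units, and *opn1mw2* and *opn1sw2* were nearest to each other at 0.236. *opn1sw1* was nearest to *opn1sw2* (0.339), *opn1lw2* to *opn1sw1* (0.723) and *opn1mw1* to *opn1lw2* (1.57). Of the red and green opsins, only *opn1mw4* had a copy of its own colour as its nearest, *opn1mw2* at 0.444.

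The spread between fish also differed by opsin. The coefficient of variation over 4 libraries was 54.8% in wild-type siblings against 104.5% in mutants for *opn1mw1*, 32.3% and 31.8% for *opn1mw3*, and 27.1% and 11.4% for *opn1lw1*. It was 19.1% and 30.6% for *opn1mw2*, 12.6% and 27.1% for *opn1mw4*, 9.44% and 25.7% for *opn1lw2*, 8.19% and 19.2% for *opn1sw1* and 4.13% and 20.5% for *opn1sw2*. The median over all tested genes was 14.3% and 12.7%. In wild-type siblings *opn1sw1*, *opn1sw2*, *opn1lw2* and *opn1mw4* varied less than this median, and in mutants only *opn1lw1* did. In CPM, wild-type 1 had the highest *opn1mw1*, *opn1sw1* and *opn1sw2* and the lowest *opn1lw1*, *opn1mw2*, *opn1mw3* and *opn1mw4* of the wild-type siblings.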

How the data were processed

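Total RNA of *bbs2* mutant and wild-type retinas (4 libraries each) was ribosome-depleted and sequenced as stranded pairs. Per the labels and the methods of the paper, the authors aligned reads with STAR to GRCz11 and used DESeq2 1.30.1 in R 4.0.4. They deposited raw read counts per gene, the basis of all tests here, and TPM, which the authors scaled per length and library. For 14867 of 14867 genes with 10 or more counts in every library, count over TPM gave a single length per gene (SD of its log2 under 0.01). Which strand setting was used was not given in the sources used here. A deposited table of the authors' fold changes and p-values was not used, nor was their normalized signal.

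Gene counts were fitted in edgeR 4.0.16 (R 4.3.3, quasi-likelihood, robust, TMM, minimum count 10, 17144 of 32520 genes, biological coefficient of variation 13.6%, Benjamini-Hochberg over all tested genes, FDR 0.05). CPM is TMM-scaled, and SE is the fold change divided by the root of F. In all, 19 exact permutation tests (6 shares, 5 sums, 8 opsins against cone genes) were two-sided, adjusted within each family. Limits not rejected were found by shifting the mutants until p was under 0.05. Alternatives were library totals, DESeq2 1.42.0, limma-voom 3.58.1, no filter, limma on log2(TPM + 0.1), a replicate block, leaving out each library, TPM shares and sums, log2 ratios and the median of the cone genes. The fit was tested on simulated data, in which edgeR called 0.03% of unchanged genes. It called 38% of genes with a true log2 fold change of 0.5 in size, 70% at 1, 100% at 2 and 98% at 3. In that run 16641 of 16839 genes were unchanged, whereas 28.1% of all tested genes were called in the retinas. How often edgeR calls a gene when so large a part of the genes differs was not tested.

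The members and gene lists were chosen with earlier results of these data known. Named beside the opsins are *bbs2*, *arr3a*, *arr3b*, *rho*, up to 6 called cone genes and regulators per direction by smallest p, and the 2 genes nearest to each opsin with a mean log2 CPM of at least 1. Of the gene IDs 29201 (89.8%) matched the name table, whose assembly GRCz12tu gave gene order only. Replicates differed by more than sampling noise (chi-square per degree of freedom 5.71 to 12.3).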

Additional observations from a re-analysis of the deposited data

Results flagged for a closer look

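In 3 of 50 groups of 4 libraries, 1 library stood apart from the other 3 by Dixon's criterion (its gap to the nearest over the range of the group), where chance gives about 1 in 20. In mutant 2 the red opsin *opn1lw2* was at 66.2 CPM, with the other mutants at 117.1 to 125.8. In mutant 4 the green opsin *opn1mw2* was at 893.0 CPM, with the other mutants at 502.5 to 538.3. In wild-type 1 the UV opsin *opn1sw1* was at 2272.5 CPM, with the other wild-type siblings at 1909.9 to 1966.3.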

How the results depend on the processing

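The calls and directions of *opn1lw1*, *opn1lw2*, *opn1mw1*, *opn1mw3*, *opn1sw1* and *opn1sw2* in edgeR held under each of the 6 other tests and scalings and without any 1 library. Leaving out 1 library at a time gave 206 values that kept direction and side of the threshold, 14 that lost the call and 4 that gained it, and the other alternatives gave 84, 5 and 2, with 1 change of sign. The 206 and the 84 include the number of genes called, which has no threshold and was always counted as kept. For *opn1mw2* the log2 fold change was -0.77 with library totals (adjusted p = 0.0503) and -0.87 with no filter (adjusted p = 0.0564), and leaving out a library gave -1.11 to -0.74. For *opn1mw4* this range was -0.39 to -0.10. The green sum was -0.26 with library totals and -0.26 with TPM, and -0.44 to -0.29 without 1 library. The share differences ranged from -18.8 to -11.4 points for *opn1mw1*, -22.7 to -13.3 for *opn1mw2* and -13.7 to -8.43 for *opn1sw1*. Relative to the cone genes, the ranges were -4.89 to -3.79 for *opn1mw1* and 0.20 to 0.46 for *opn1sw2*, and the median of the cone genes gave 0.94 for *opn1mw2*, 0.051 for *opn1sw1* (a change of sign) and 0.64 for *opn1sw2*. The cause of these changes was not tested.

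Over all genes edgeR called 4824, and the alternatives called 3633 (TPM) to 4990 (no filter). With library totals the median log2 fold change moved from -0.01 to 0.09 and the share of calls that were upward from 54.0% to 71.3%, while no opsin changed direction. With the replicate block 4759 genes were called and *opn1mw2* was at -0.90 (adjusted p = 0.0554). The block lowered the SE of *opn1lw1* from 0.20 to 0.09 and that of *opn1mw3* from 0.32 to 0.09 (adjusted p = 2.47e-06 and 9.6e-08), with both changes upward as before. Over all genes, same-numbered libraries of the genotypes did not deviate together (correlations -0.0659 to 0.0602), so the numbers were not taken as pairs. *opn1lw1* and the red sum nevertheless ran in the same order of CPM in both genotypes. *opn1lw1* had 722.7, 964.7, 1397.6 and 1171.5 CPM in wild-type siblings and 1803.9, 2053.7, 2351.3 and 2249.6 CPM in mutants. *opn1mw2* did not share this order, being highest in wild-type 3 and in mutant 4. The tests without a block ignore such an order, and whether the numbers mark a shared batch was not tested. *opn1mw1* in mutants rests on 20 to 137 counts per library.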
